A study of Homo sapiens with 24 samples.

Results

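In cultured HT29 cells a small group of transcripts stood higher at 72 h than at 48 h, after a smaller difference between 24 and 48 h. The group held 84 of the 49293 probe sets on the array that were not array controls. Members were chosen on measured values, as probe sets whose mean over the 8 arrays at 72 h was at least 1.5-fold above the mean over the 8 arrays at 24 h, with a difference of at least 0.3 on the log2 scale in each replicate set taken alone. At most 0.35 of that difference could already be present at 48 h. Another 591 probe sets met the same minimum differences but had passed that share by 48 h. Because these levels chose the members, the time course of the members is given here as a description, with no test.

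HT29 is an epithelial cell line established from a human colorectal adenocarcinoma. Cells were seeded, left for 24 h, and then given VEGF at 100 ng/ml, PDGF at 100 ng/ml, or the vehicle of one or the other factor, and total RNA was taken after 24, 48 and 72 h. The 12 groups were VEGF, VEGF vehicle, PDGF and PDGF vehicle at each of these times, with 2 arrays in each group, 24 arrays in all. The arrays of replicate 1 were all hybridised on one day and those of replicate 2 on another, so replicate set and hybridisation day cannot be told apart. The labels do not say that replicates were separate cultures, so the p-values below rest on a spread that may be technical.

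VEGF is a growth factor best known for its action on blood vessel endothelium, and PDGF for its action on fibroblasts and other mesenchymal cells. The late-rising genes include thioredoxin-interacting protein, whose transcription follows the glucose supply in many cell types, and part of the interferon pathway. In that pathway a secreted interferon acts through its receptor on STAT proteins, which join IRF9 to form a complex that binds short repeats of GAAA in promoters and turns on antiviral genes. Others encode proteins of the endoplasmic reticulum, secreted protease inhibitors, an iron exporter and core histones.

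Promoters are shown for 5 members that the account returns to, as the 250 bases before the annotated start site, read in the direction of the gene (RefSeq, GRCh38.p14). Capitals mark CCAAT in the TXNIP promoter, a doubled GAAA (GAAA, any pair of bases, then GAAA again) in the promoters of DDX60 and IFITM3, and CCAAT or TATAAA in the promoters of the histone genes H2BC5 and H2AC6, each on either strand, so that ATTGG and TTTATA are the same letters read from the other strand.
TXNIP (chr1:145996580-145996829, minus strand): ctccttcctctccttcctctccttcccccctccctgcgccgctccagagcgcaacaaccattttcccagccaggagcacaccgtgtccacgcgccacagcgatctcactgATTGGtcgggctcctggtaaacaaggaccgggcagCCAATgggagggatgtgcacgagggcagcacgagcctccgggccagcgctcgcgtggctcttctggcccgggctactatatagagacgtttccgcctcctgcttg
DDX60 (chr4:168318753-168319002, minus strand): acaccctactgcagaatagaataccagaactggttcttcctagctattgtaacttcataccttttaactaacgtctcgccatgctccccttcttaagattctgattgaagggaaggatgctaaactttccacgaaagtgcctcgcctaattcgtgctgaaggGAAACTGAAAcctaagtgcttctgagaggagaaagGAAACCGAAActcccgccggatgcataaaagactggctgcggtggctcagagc
IFITM3 (chr11:320861-321110, minus strand): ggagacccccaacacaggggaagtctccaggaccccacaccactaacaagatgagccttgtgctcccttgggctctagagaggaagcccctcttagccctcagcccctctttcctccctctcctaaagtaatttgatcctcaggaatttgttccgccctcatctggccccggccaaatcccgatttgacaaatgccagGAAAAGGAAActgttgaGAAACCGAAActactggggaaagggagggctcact
H2BC5 (chr6:26157871-26158120, plus strand): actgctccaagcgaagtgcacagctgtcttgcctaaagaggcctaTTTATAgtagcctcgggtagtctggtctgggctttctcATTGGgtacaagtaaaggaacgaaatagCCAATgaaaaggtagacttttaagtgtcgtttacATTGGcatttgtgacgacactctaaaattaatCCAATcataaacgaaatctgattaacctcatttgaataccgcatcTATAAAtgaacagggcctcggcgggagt
H2AC6 (chr6:26123922-26124171, plus strand): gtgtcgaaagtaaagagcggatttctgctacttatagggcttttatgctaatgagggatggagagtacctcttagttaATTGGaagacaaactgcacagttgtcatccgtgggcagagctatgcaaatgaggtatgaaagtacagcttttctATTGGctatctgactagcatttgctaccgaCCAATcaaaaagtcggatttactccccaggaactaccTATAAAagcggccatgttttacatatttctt
Each of the promoters of DDX60, a helicase-like antiviral protein, and IFITM3, a membrane protein that blocks virus entry, held the doubled GAAA in 2 places. In DDX60 the matches began 88 and 53 bases before the start site, and in IFITM3 they began 52 and 35 bases before it. H2BC5 carried CCAAT 4 times and H2AC6 carried it 3 times, with a TATAAA 28 and 31 bases before their start sites.

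A promoter of 300 bases (250 before and 50 after the start site) was at hand for 46 of the 60 member genes and for 14425 genes on the array. The doubled GAAA, searched like the other motifs on both strands, was found in 4 of the 46 promoters (8.70%), against 3.09% of the 14425. It was added to the motifs after values had been seen. Besides DDX60 and IFITM3, the genes with it were CEACAM1 and KLHL5. The promoters of IRF9, OAS1 and PSMB8, also interferon-linked members, held no match. TATAAA was found in 8 member promoters (17.4% against 9.19%) and TTTATG in 8 (17.4% against 7.62%). CCAAT was found in 12 (26.1% against 36.4%), GGGCGG in 29 (63.0% against 59.7%), and ACGTG in 15 (32.6% against 23.9%), a count that includes the 5 promoters with CACGTG (10.9% against 8.82%). TGANTCA was found in 4 (8.70% against 5.80%), AGATAA in 2 (4.35% against 7.57%) and TGTTTAC in 2 (4.35% against 2.53%). These shares describe letters within a short window and no factor's binding was measured.

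The platform's annotation paired 79 of the 84 probe sets with 1 gene symbol, 2 with several and 3 with none, and the 79 belong to 60 genes. Of these genes, 10 had more than 1 probe set among the members. All 5 probe sets of TXNIP and all 5 of TNNT1 were members, as were 4 of 5 for CLGN and 3 of 4 for SERPINA1. SLC40A1 and QPCT had both of their probe sets in the group, and IRF9 and OAS1 had 2 of 4 each. The member genes had 97 further probe sets on the array that were not members, of which 90 were higher at 72 h than at 24 h, with a median difference of 0.26 on the log2 scale. Their differences ran from -0.80 (DEF8) to 1.33 (RHOQ). A value given below for a gene is that of a member probe set unless said otherwise, and its other probe sets may disagree. In 31 of the members the probe set's suffix marks probes shared between transcripts of different genes (_s_at, 16 members, or _x_at, 15 members), so that IFITM2, IFITM3, TUBA1A, H2AC6 and PRSS1 may include signal from close relatives.

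The difference between 72 and 24 h, called the rise below, ran from 0.59 to 1.13 on the log2 scale over the 84 members, with a median of 0.70, or 1.63-fold. The median over all 49293 probe sets was 0.0086. Only 6 members passed 2-fold. All 8 arrays at 72 h lay above all 8 at 24 h in 76 of the 84 members, against 6.94% of all probe sets. All 8 arrays at 72 h lay above all 8 at 48 h in 54 members, against 1.57%, and all 8 at 48 h lay above all 8 at 24 h in 2, against 1.84%. The choice of members used these same levels, so nothing is read from the counts. The rise computed separately for each of the 4 treatments in each replicate set was above 0 in all 8 cases for 80 of the 84. The exceptions were all TXNIP probe sets, which were lower at 72 h than at 24 h with VEGF vehicle in set 2.

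Timing differed between the replicate sets more than the averaged rule shows. The mean of the 84 probe sets at 24, 48 and 72 h was 7.87 ± 0.038, 8.19 ± 0.028 and 8.56 ± 0.021 in replicate set 1 (log2 scale, SD, n = 4). In replicate set 2 it was 7.89 ± 0.030, 7.95 ± 0.016 and 8.70 ± 0.053 at the same times. In set 1 the arrays of each time stood apart from those of the time before, whereas in set 2 the arrays of 24 and 48 h lay close together and those of 72 h far above them.

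**Figure D1:**
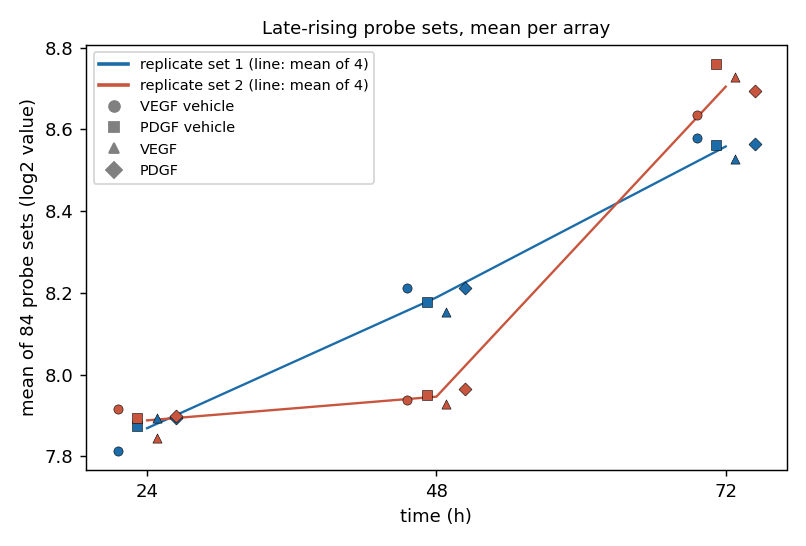
Mean log2 value of the 84 late-rising probe sets on each of the 24 arrays (y axis) against time in h (x axis), with colour for the replicate set, symbol shape for the treatment and lines joining the means of 4 arrays. At 48 h the 4 arrays of set 1 lie between 8.15 and 8.21 and those of set 2 between 7.93 and 7.97, while at 24 h both sets lie between 7.81 and 7.92.

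The share of the rise reached by 48 h had a median of 0.49 in set 1 and 0.085 in set 2, and was 0.28 in the mean of both sets. It was larger in set 1 for 80 of the 84 members, and likewise for 551 of the 591 other risers. All 84 met the limit of 0.35 in set 2 taken alone, and 17 met it in set 1 taken alone, so the label of a late rise held in both sets for 17 probe sets. These 17 belong to 8 genes, namely TXNIP, SERPINA1, IRF9, OAS1, QPCT, SLC40A1, DDX60 and PIGZ. Within set 1, all 4 arrays at 48 h lay above all 4 at 24 h in 70 members, against 10.6% of all probe sets. Within set 2 this held for 22 members, against 8.2%, and 18 members were lower at 48 h than at 24 h in that set. The step from 48 to 72 h separated the 4 arrays of one time from the 4 of the other in all 84 members in set 2, against 13.0%, and in 70 members in set 1, against 5.26%. The choice of members drew on these same levels, so nothing is read from these counts beside the shares of all probe sets.

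**Figure D2:**
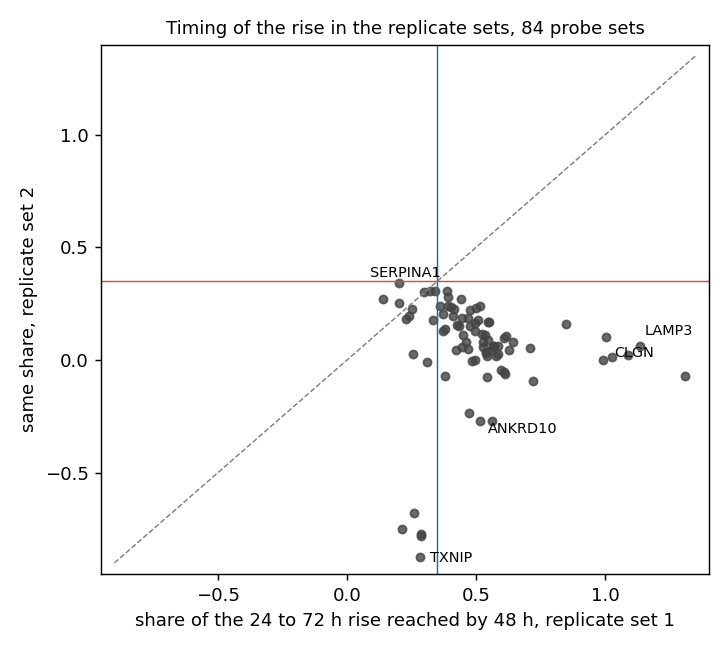
Share of the 24 to 72 h rise present at 48 h in replicate set 1 (x axis, no unit) against the same share in replicate set 2 (y axis), one point per late-rising probe set, with the limit of 0.35 drawn for each set and the dashed line marking equal shares. All 84 points lie below the limit on the y axis, 17 lie left of it on the x axis, and TXNIP stands apart with shares between -0.87 and -0.68 in set 2.

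The dependence on the replicate set was tested, since the choice of members did not use the difference between sets at a given time. Each set had 1 hybridisation day, so the p-values of set comparisons measure the spread among arrays within sets, not between repeated sets. The difference between set 2 and set 1 at 48 h, less the mean of that difference at 24 and 72 h, passed an adjusted p of 0.05 in limma for 54 of the 84 members, all with a negative departure, against 5.48% of all probe sets in either direction, 2.28% positive and 3.19% negative. Of these 54, set 2 had the lower mean at 48 h in 52 and the higher in 2. Its median over the members was -0.31 on the log2 scale, against -0.0008 over all probe sets. The 591 other risers moved the same way, with 282 called with a negative departure and a median of -0.24, so this feature is shared by the genes that were higher at 72 h and is not particular to the late ones. The contrast also turns negative where set 2 was the higher at 72 h, as for CLGN below.

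RNA integrity numbers at 24, 48 and 72 h had medians of 9.3, 9.65 and 9.6, with a lowest value of 8.8, and the 3' minus 5' difference of the GAPDH control probe sets had medians of 0.36, 0.37 and 0.33 on the log2 scale. Array medians lay between 7.05 and 7.13. The 8 epithelial markers were all above the control level, which is the 95th percentile of the ERCC control probe sets (6.45), as were 79.9% of all probe sets. EPCAM lay at 13.2 to 13.3 and KRT18 at 14.3 to 14.4, but CDX2 only at 7.34 to 7.43. Endothelial markers lay between 6.57 and 7.21 and fibroblast markers between 6.27 and 6.88. The endothelial markers, COL1A1, COL1A2 and PDGFRB were also above the control level, and COL3A1, DCN and LUM were not. Among leukocyte markers PTPRC was not above it and CD3E and CD14 lay between 6.73 and 6.90, whereas LYZ, which secretory epithelium also makes, lay between 13.7 and 13.9. These are values of different probe sets and do not rank the genes by abundance. The part of RNA integrity in the time course was not tested. In bulk RNA, fewer cells making a transcript and less of it per cell cannot be told apart.

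TXNIP, an arrestin-like protein that binds thioredoxin and restrains glucose uptake, had the highest rises after CLGN and the most unusual course. Its best probe set (11752765_s_at) read 9.65, 9.73, 9.82 and 9.96 at 24 h in the 4 arrays of set 1 and 10.10, 10.29, 10.38 and 10.49 in those of set 2. At 48 h it read 10.06, 10.13, 10.30 and 10.43 in set 1 and 9.68, 9.76, 9.86 and 9.92 in set 2. At 72 h it read 11.25, 11.30, 11.35 and 11.48 in set 1 and 10.41, 10.99, 11.09 and 11.10 in set 2. Every set 1 array of 48 h was above every set 1 array of 24 h, and every set 2 array of 48 h was below every set 2 array of 24 h. The change from 24 to 48 h was 0.44 ± 0.28 in set 1 and -0.51 ± 0.26 in set 2 (log2, SD, n = 4), so the flat mean of both sets (10.05 at 24 h and 10.02 at 48 h) is made of opposite movements. The rise to 72 h was 1.56 in set 1 and 0.58 in set 2. With VEGF vehicle in set 2 there was no rise, with 10.49 at 24 h and 10.41 at 72 h. The other 4 probe sets had rises of 0.84 to 1.07 and the same opposite movements. The tested departure at 48 h was -0.46 ± 0.091 (SE, limma adjusted p = 0.00363), and 3 of the 5 probe sets passed that test. Under all 4 treatments, 8 members were higher at 48 h than at 24 h in set 1 and lower in set 2, against 1.47% of all probe sets. Besides the 5 TXNIP probe sets these were ANKRD10, CLIC5 (an intracellular chloride channel protein) and TIMP2 (an inhibitor of metalloproteinases), with changes of 0.31, 0.31 and 0.32 in set 1 and -0.18, -0.14 and -0.18 in set 2. From 24 to 72 h the probe sets outside the group differed by -0.38 for ANKRD10, 0.003 to 0.19 for CLIC5 and 0.23 for TIMP2.

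CLGN, calmegin, an endoplasmic reticulum chaperone known best from germ cells of the mouse testis, had the largest mean rise, 1.13 or 2.19-fold, in probe set 11749190_a_at. At 24 h the 4 arrays of set 1 read 6.16, 6.30, 6.32 and 6.46 and those of set 2 read 6.24, 6.26, 6.26 and 6.51. At 48 h they read 6.67, 6.73, 6.89 and 7.00 in set 1 and 6.39, 6.48, 6.51 and 6.62 in set 2, and at 72 h they read 6.76, 6.78, 6.84 and 6.90 in set 1 and 7.94, 8.03, 8.05 and 8.24 in set 2. The sets did not overlap at 48 h, with set 1 the higher, nor at 72 h, with set 2 far the higher. In set 1 the whole rise of 0.51 was present by 48 h, and in set 2 a share of 0.10 of a rise of 1.75 was. The 4 CLGN members gave departures at 48 h of -0.95 to -1.07 (limma, adjusted p between 4.08e-08 and 1.63e-06).

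LAMP3, a lysosome-associated membrane protein of maturing dendritic cells that other cells make under stress, followed CLGN closely. It had a median of 6.26 at 24 h (range 6.23 to 6.38), 6.52 at 48 h (6.29 to 6.73) and 7.07 at 72 h (6.58 to 7.91). Its rise was 0.37 in set 1, all present by 48 h, and 1.34 in set 2, with a share of 0.061 present by 48 h. The probe sets whose levels over the 24 arrays were most like those of 11749190_a_at were the 4 other CLGN probe sets, with Pearson correlations of 0.974 to 0.984, and LAMP3 with 0.966, values over arrays that share the time course and the replicate sets. PRSS1, cationic trypsinogen, also had most of its set 1 rise by 48 h (a share of 0.85 of a rise of 0.53) and little of its set 2 rise (a share of 0.16 of a rise of 1.54). The PRSS1 probe sets outside the group had differences of -0.01 to 0.20 from 24 to 72 h, and that of LAMP3 had 0.07. For both genes the probe sets therefore disagree. At 24 h the 4 CLGN members and LAMP3 lay at or under the control level of 6.45, the only 5 of the 84 to do so, so their folds start from a level not told apart from control signal.

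The other endoplasmic reticulum and protein-modifying members were P4HA2, a subunit of collagen prolyl hydroxylase, QPCT, a glutaminyl cyclase, CKAP4, a membrane protein of the endoplasmic reticulum, DNAJC12, a co-chaperone of aromatic amino acid hydroxylases, and PIGZ, a mannosyltransferase of membrane anchor synthesis. P4HA2 had a median of 8.94 at 24 h (8.89 to 9.10), 9.14 at 48 h (8.96 to 9.54) and 9.83 at 72 h (9.63 to 10.18), a rise of 0.92. Its arrays at 72 h lay above all those of both earlier times. QPCT had a median of 10.35 at 24 h (10.01 to 10.43), 10.58 at 48 h (10.18 to 10.81) and 11.12 at 72 h (10.69 to 11.35) in probe set 11719828_x_at, a rise of 0.79 that was 0.74 in set 1 and 0.84 in set 2. QPCT kept the same share by 48 h in both sets (0.32 and 0.31). The rises of CKAP4, DNAJC12 and PIGZ were 0.64, 0.66 and 0.61. The CKAP4 probe set outside the group had a larger rise, 1.09, with a share of 0.45 by 48 h, over the limit of 0.35.

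**Figure D3:**
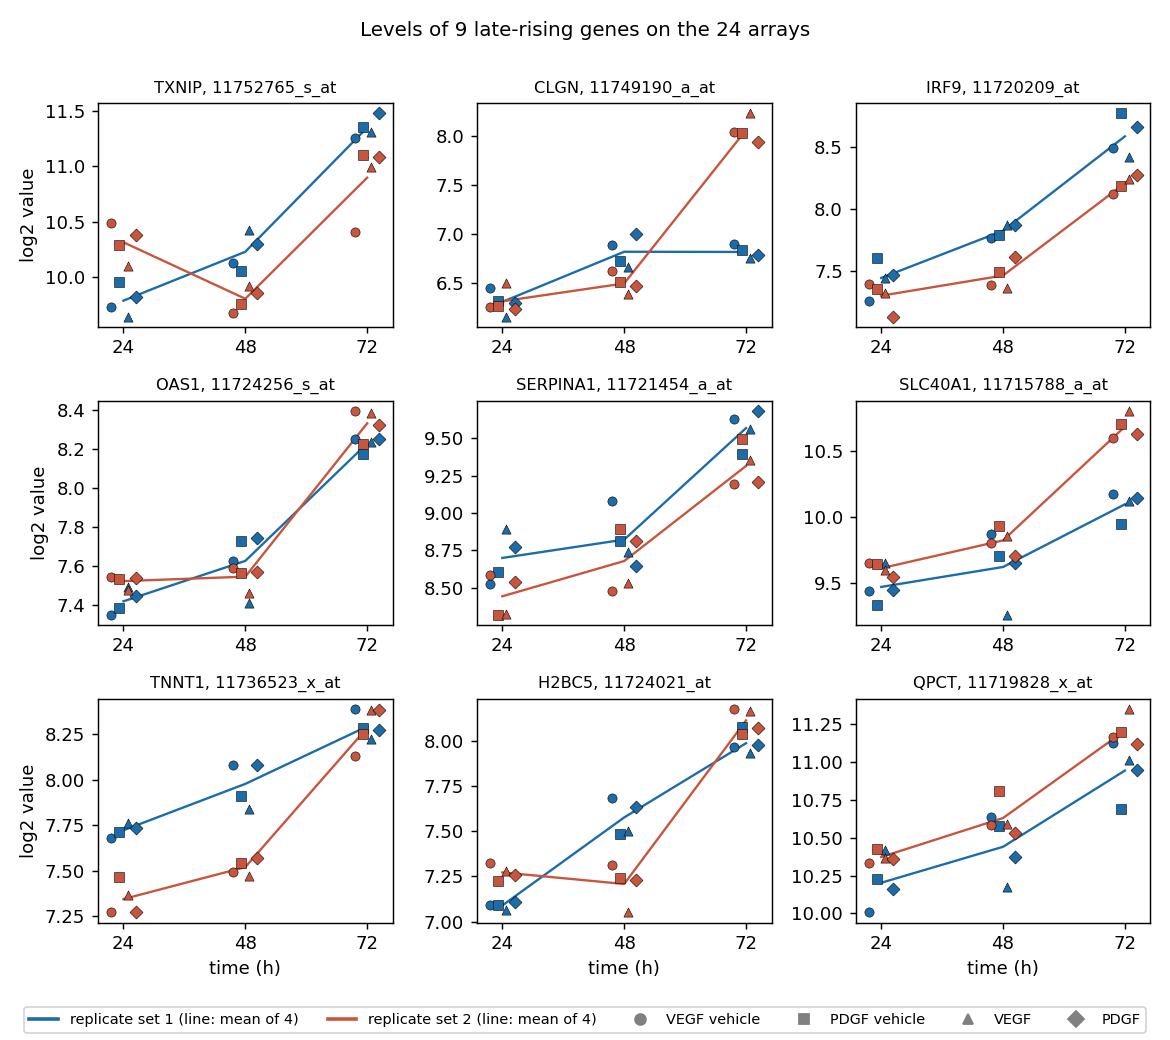
Log2 values of 9 late-rising genes, 1 probe set each, on the 24 arrays (y axis) against time in h (x axis), with colour for the replicate set, symbol shape for the treatment and lines joining the means of 4 arrays. TXNIP goes up in set 1 and down in set 2 from 24 to 48 h, CLGN reaches 6.67 to 7.00 by 48 h in set 1 and stays there, and the sets run nearly together for OAS1.

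Interferon-linked genes made up 9 of the members, from IRF9, OAS1, DDX60, IFITM2, IFITM3, PSMB8 and LAMP3. IRF9, the DNA-binding part of the interferon-activated complex, had the largest rise among them, 1.02 ± 0.18 (SD of the rises in the 8 combinations of treatment and replicate set) in probe set 11720209_at. At 24 h it read 7.27, 7.45, 7.47 and 7.61 in set 1 and 7.14, 7.33, 7.36 and 7.40 in set 2. At 48 h it read 7.77, 7.79, 7.87 and 7.87 in set 1 and 7.37, 7.39, 7.50 and 7.61 in set 2, and at 72 h it read 8.42, 8.49, 8.66 and 8.77 in set 1 and 8.12, 8.19, 8.24 and 8.27 in set 2. All arrays at 72 h lay above all earlier arrays in both sets. The departure of set 2 from set 1 at 48 h was -0.10 ± 0.081 (SE) and did not pass the test (adjusted p = 0.637, limma). The other IRF9 member had a rise of 0.66, and the 2 IRF9 probe sets outside the group had rises of 0.36 and 0.47.

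OAS1, an enzyme that senses double-stranded RNA and activates RNase L, had a rise of 0.81 in each set in probe set 11724256_s_at. Its arrays read 7.35, 7.39, 7.45 and 7.49 (set 1) and 7.48, 7.53, 7.54 and 7.54 (set 2) at 24 h. They read 7.41, 7.63, 7.73 and 7.75 (set 1) and 7.46, 7.57, 7.57 and 7.59 (set 2) at 48 h, and 8.18, 8.24, 8.25 and 8.25 (set 1) and 8.23, 8.32, 8.39 and 8.40 (set 2) at 72 h. The lowest array at 72 h was above the highest at 48 h, and the sets overlapped at every time. DDX60 at 24, 48 and 72 h had medians of 7.38, 7.56 and 8.07, with all arrays at 72 h (7.99 to 8.17) above those of 48 h (7.34 to 7.80).

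PSMB8, a catalytic subunit of the immunoproteasome, had a median of 7.96 at 24 h (7.81 to 8.19), 8.20 at 48 h (7.97 to 8.61) and 8.88 at 72 h (8.79 to 9.07), a rise of 0.94. The times did not overlap between 48 and 72 h. A second PSMB8 probe set outside the group had a rise of 0.96 and the third one of -0.01, so the probe sets of this gene disagree. IFITM3 and IFITM2 had rises of 0.75 and 0.69, with shares by 48 h of 0.27 and 0.24. Their genes lie within 1 megabase of each other on chromosome 11. They may share probes, and are counted here as 2 probe sets and not as independent measurements.

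The wider interferon list had 83 probe sets for 33 measured genes, and was chosen with earlier results of these data known. Of these, 20 probe sets of 14 genes had a rise of at least 0.3 in each replicate set, against 4.27% of all probe sets. In 15 of the 20 the share by 48 h was at most 0.35, against 402 of the 2107 probe sets with such a rise over the whole array. The median rise of the list was 0.23, against 0.0086. Only 5 of the 83, from IRF9, OAS1 and DDX60, were members, because most others stayed under the 1.5-fold minimum. Genes below it, named after their values were seen, include, with their means at 24, 48 and 72 h, PARP9 (8.48, 8.44 and 8.97), ISG15 (10.55, 10.61 and 10.95) and IRF7 (9.08, 9.22 and 9.46). ISG20, with the list's largest rise (1.56), had reached a share of 0.50 by 48 h and was not a member. IFI27 (11757480_x_at) fell just outside, with a rise of 1.20 in set 2 and 0.18 in set 1.

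**Figure D4:**
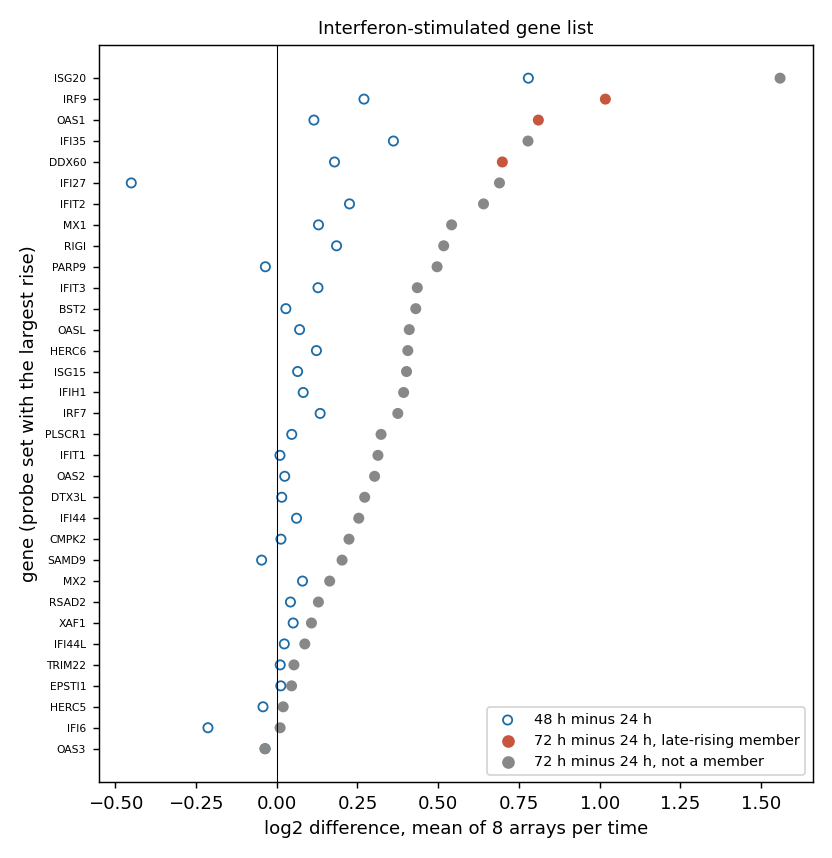
Log2 difference from 24 h (x axis, means of 8 arrays per time) for the genes of the interferon list (y axis, the probe set with the largest rise of each gene), with open circles at 48 h and filled circles at 72 h, red for the late-rising members IRF9, OAS1 and DDX60. For most genes the open circle lies near 0 and the filled circle to its right, and ISG20 has the largest rise, 1.56. Taking the largest rise of each gene itself moves filled circles to the right, so the picture does not stand for all 83 probe sets of the list.

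Secreted proteins and proteases were represented by SERPINA1, PRSS1, TIMP2, ADAMTS6, SEMA3B and CLEC3A. SERPINA1, alpha-1-antitrypsin, had a median of 8.56 at 24 h (8.32 to 8.90), 8.78 at 48 h (8.48 to 9.08) and 9.44 at 72 h (9.20 to 9.68) in probe set 11721454_a_at. The 8 arrays at 72 h lay above all earlier ones, and the rise was 0.87 in each set, with shares by 48 h of 0.14 and 0.27. Its departure at 48 h was 0.11 ± 0.13 (SE, limma adjusted p = 0.779), and the other 2 SERPINA1 members were also not called. ADAMTS6, a secreted metalloproteinase, had a rise of 1.13 in set 1 and 0.50 in set 2. The ADAMTS6 probe set outside the group had a rise of only 0.11 in the mean of both sets. SEMA3B, a secreted semaphorin, and CLEC3A, a secreted lectin, had rises of 0.68 and 0.67.

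Among transporters, SLC40A1, the cellular iron exporter ferroportin, had a median of 9.57 at 24 h (9.33 to 9.65), 9.75 at 48 h (9.26 to 9.93) and 10.38 at 72 h (9.94 to 10.80) in probe set 11715788_a_at. No array at 72 h overlapped with the earlier ones, and the rise was 0.63 in set 1 and 1.07 in set 2. Its other probe set had a rise of 0.66. SLC5A1, the intestinal sodium and glucose cotransporter, had a rise of 0.59, CLIC5 of 0.62 and ORAI2, a subunit of calcium entry channels, of 0.67.

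Cell surface members were CEACAM1, an adhesion molecule of epithelial and immune cells, SLITRK6, a neuronal adhesion-type receptor, LY75, an endocytic receptor, and NCMAP, a myelin-associated membrane protein. CEACAM1 had a median of 8.80 at 24 h (8.64 to 8.99), 9.10 at 48 h (8.94 to 9.42) and 9.82 at 72 h (9.65 to 9.96), a rise of 0.98. The 72 h arrays stood above all others, but the 8 other CEACAM1 probe sets had rises of 0.14 to 0.38. SLITRK6, LY75 and NCMAP had rises of 0.79, 0.65 and 0.75. The SLITRK6 probe set outside the group had a larger rise, 0.97, with a share of 0.43 by 48 h, over the limit of 0.35. The NCMAP probe sets outside the group had rises of only 0.01 to 0.21. The arrays of SLITRK6 and LY75 overlapped between 24 and 72 h.

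Cytoskeletal members included TNNT1, slow skeletal muscle troponin T, with 5 probe sets, and TUBA1A (an alpha-tubulin), DBN1 (drebrin, an actin-binding protein) and TRIOBP (an actin-bundling protein) with 1 each. TNNT1 had a median of 7.57 at 24 h (7.27 to 7.76), 7.70 at 48 h (7.47 to 8.08) and 8.28 at 72 h (8.13 to 8.39) in probe set 11736523_x_at. Its set 2 arrays lay below its set 1 arrays at 24 and 48 h, and the sets met at 72 h. The 5 TNNT1 rises were 0.60 to 0.76. The DBN1 member had a rise of 0.66, but the DBN1 probe sets outside the group had larger ones, 0.98 to 1.19. Their median share by 48 h was 0.42, over the limit of 0.35. The TRIOBP probe sets outside the group had differences of -0.24 to 0.53.

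The 2 histone members, H2BC5 and H2AC6, lie close to each other on chromosome 6. H2BC5, a histone H2B gene, had a median of 7.17 at 24 h (7.06 to 7.32), 7.40 at 48 h (7.05 to 7.69) and 8.06 at 72 h (7.93 to 8.18), and the spread of its rise over the 8 combinations was 0.053 around 0.87. All 72 h arrays lay above the others, and at 48 h set 1 was the higher, with a departure of -0.52 ± 0.059 (SE, limma adjusted p = 2.29e-05). H2AC6, a histone H2A gene, had a rise of 0.62. The histone list had 29 probe sets with a median rise of 0.045, and 5 of them had a rise of at least 0.3 in each set.

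Members of vesicle traffic, lysosome and autophagy were RABAC1 (a Rab acceptor), RAB26 (a Rab GTPase of secretory granules), PSAP (prosaposin, the precursor of lysosomal lipid-degrading activators), WIPI2 (a protein of autophagosome formation), TBC1D8B (a Rab GTPase activator) and DEF8 (a regulator of lysosome position). Their rises were 0.82, 0.71, 0.59, 0.78, 0.65 and 0.60, and the arrays of RABAC1, RAB26, WIPI2, TBC1D8B and DEF8 had no overlap between 48 and 72 h. The lysosome and autophagy list had 28 of 96 probe sets with a rise of at least 0.3 in each set, 8 of them late, and PSAP was its only member. The zinc finger genes ZKSCAN1 and ZNF655, within 1 megabase of each other on chromosome 7, had rises of 0.81 and 0.78. RABAC1 and CEACAM1 on chromosome 19, and SERPINA1 and CLMN on chromosome 14, were the other member genes within 1 megabase of each other.

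The remaining named genes with large rises were C12orf57, a small conserved protein (0.93), CMTM3, a membrane protein of the chemokine-like factor family (0.79), and SPAG4, a protein of the nuclear envelope (0.78). C12orf57 had a median of 9.43 at 24 h (9.24 to 9.61), 9.71 at 48 h (9.46 to 9.93) and 10.36 at 72 h (10.28 to 10.44), with no overlap between the latest time and the others. The lowest rises were those of SLC9A3-AS1, an antisense transcript (0.5855), and TUBA1A (0.5857), and just outside lay 11743960_a_at (0.5847) and ARLN (0.5829). At the limit on the share, RABAC1 (0.3483) and 11734902_a_at (0.3465) were inside and GOLT1A (0.3501) and NAT14 (0.3508) outside. At the limit of 0.3 in each set, 11718933_s_at (0.30) and CKAP4 (0.35) were inside, and 11739787_a_at (0.22) and IFI27 (0.18) outside.

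Lists of other processes held few members. TXNIP supplied all 5 members of the growth arrest list, SLC40A1 both of the metal list, P4HA2 the 1 of the hypoxia list and CEACAM1 the 1 of the enterocyte and of the junction list. The amino acid response list, whose genes are driven by ATF4, had 63 of 100 probe sets with a rise of at least 0.3 in each set, but 1 of them was late and 0 were members, and the median share of the 63 by 48 h was 0.83. The lists of DNA replication (91 probe sets) and of mitosis (97) had median differences of -0.67 and -0.29 from 24 to 72 h and 0 members. Of the 62 probe sets for VEGF and PDGF ligands and receptors, 0 were members and 6, all of 1 gene, had a rise of at least 0.3 in each set. These counts describe the lists and were not tested.

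The design asked what each growth factor changed, and no effect of VEGF or PDGF on the late-rising probe sets was detected. At 24, 48 and 72 h, averaged over times, and for the change of the response from 24 to 72 h, 0 of the 84 members passed an adjusted p of 0.05 in limma for either factor, against 0.0% of all 49293 probe sets. The direct comparisons of the factor responses and of the vehicles also gave 0 of 84, against 0.0%, and the fit with the replicate number as a block gave 0 in all 12 comparisons. Neither fit had a set term for each time, so set differences that changed with time stayed in the spread of these tests. A treatment fit with such terms was not run. At an unadjusted p of 0.05 the number of members was between 0 and 2 in each comparison, at most 2.38% of them, where 1.05% to 4.01% of all probe sets passed. The median difference of the members lay between -0.04 (VEGF at 48 h) and 0.02 (PDGF at 48 h) at single times.

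The typical 95% interval of a member reached 0.38 on the log2 scale to either side of its difference at a single time and 0.22 in the average over times. These intervals come from the fit without the replicate block, so level differences between the sets are part of their width. They are not corrected for the number of probe sets tested. With 2 arrays a group, effects of this size or larger could therefore also have been missed. The rise itself had medians of 0.73 with VEGF vehicle, 0.74 with PDGF vehicle, 0.73 with VEGF and 0.70 with PDGF. It was larger in the factor arrays than in the vehicle arrays for 40 of the 84. The median response to VEGF at 72 h was -0.05 in set 1 and 0.06 in set 2, and that to PDGF 0.004 in set 1 and -0.07 in set 2, so the signs differed between the sets.

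**Figure D5:**
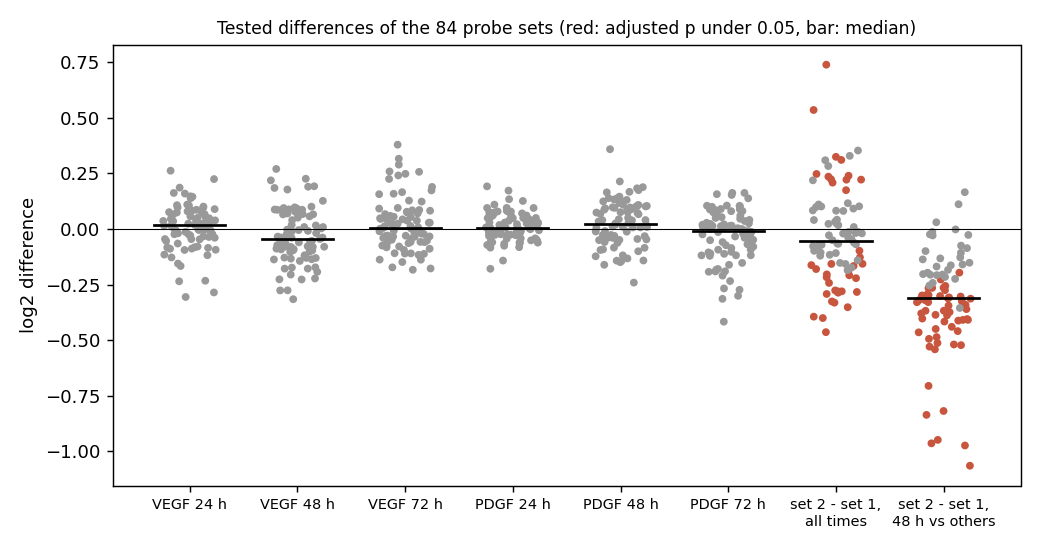
Log2 differences of the 84 late-rising probe sets (y axis, one point each, bar at the median) at 24, 48 and 72 h for VEGF and PDGF, each less its own vehicle, for replicate set 2 against set 1 over all times, and for the set difference at 48 h against its mean at 24 and 72 h (x axis), with red for an adjusted p under 0.05. No point is red for a factor, while 37 and 54 are red for the comparisons of the sets.

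PIGZ, singled out after its values were seen, had the smallest p before adjustment for both factors at 72 h. It was 0.10 and 0.36 above its vehicle with VEGF in sets 1 and 2, and -0.35 and -0.25 from its vehicle with PDGF. Its fitted differences were 0.23 ± 0.079 for VEGF (SE, limma adjusted p = 1.0) and -0.30 ± 0.079 for PDGF (limma adjusted p = 0.9998, or 0.586 with the block). The difference between the vehicles of PIGZ was -0.17 ± 0.045 (VEGF vehicle minus PDGF vehicle, averaged over times, SE, limma adjusted p = 1.0).

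The replicate sets differed in level over all times for 37 of the 84 members in limma, 12 higher in set 2 and 25 lower, against 28.3% of all probe sets (14.8% higher and 13.5% lower). LY75 was higher in set 2 by 0.54 ± 0.037 (SE, adjusted p = 3.45e-08) and CLEC3A by 0.24 ± 0.033 (adjusted p = 3.31e-05). DBN1 was lower in set 2 by a log2 difference of -0.46 ± 0.041 (adjusted p = 3.18e-07), CMTM3 by -0.40 ± 0.039 and PSAP by -0.39 ± 0.058. IRF9, with both members, IFITM3 and all 5 TNNT1 probe sets were also lower in set 2, by -0.21 to -0.35. These differences are of the size of the rises of some members, and LY75 was among the 8 members whose arrays at 24 and 72 h overlapped.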

How the data were processed

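Biotin-labelled RNA of each sample was put on 1 Affymetrix array, per the labels' protocols. The log2 values were deposited by the authors, and the submitters' processing notes name RMA and R 3.0.1. RMA quantile-normalises arrays, so a shift of all RNA cannot be measured, and probe set values are not comparable as amounts between genes. The 2 deposited tables held identical values for the 49293 probe sets left after array controls were removed. No filter on dim signals was used.

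Gene names came from the platform annotation of the series, which lists 44988 probe sets with 1 gene, 1832 with several and 2473 with none, and a probe set with several was not named. No member symbol needed an update through its Entrez identifier.

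Tests used limma 3.58.1 in R 4.3.3 (lmFit and eBayes) on all probe sets, with means of the 12 groups, 2-sided, Benjamini-Hochberg over all probe sets, threshold 0.05. The comparisons of replicate sets added a set term, or 1 for each time. Simulated data with known changes were run through the fits, with noise drawn independently for each array. They lacked deviations shared by same-numbered arrays, so they do not show how the fits behave with these. Same-numbered arrays deviated together in 66 of 66 pairs of groups (correlations 0.257 to 0.80), and the labels give each number 1 hybridisation day. A replicate block lowered the residual SD from 0.0823 to 0.0740 and was run as an alternative.

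The members and the gene lists were chosen with earlier results of these data known. Named were the 25 genes with the largest rises, list members, probe sets at each threshold, up to 10 called members per comparison and the 5 probe sets most like the top member. One of these genes is not reported here. Role groups were formed, and the doubled GAAA added to the motifs, after values had been seen. Alternatives were the limits of the rule, the arrays used, median centring, a filter on dim probe sets, trend and robust settings, the block, the other table and leaving out each array.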

Additional observations from a re-analysis of the deposited data

Results flagged for a closer look

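The replicate sets followed different courses. For 54 of the late-rising probe sets the difference between set 2 and set 1 at 48 h departed from its mean at 24 and 72 h, by limma's test of that difference. The log2 departures with the lowest adjusted p were -0.97, -0.96, -1.07 and -0.95 for the CLGN probe sets, -0.82 for LAMP3, -0.84 for 11718933_s_at, -0.71 for PRSS1, -0.54 for TIMP2 and -0.52 for both H2BC5 and ANKRD10. In each, set 2 minus set 1 was lower at 48 h than its mean at 24 and 72 h. For CLGN, LAMP3, 11718933_s_at and PRSS1 all set 2 arrays lay above all set 1 arrays at 72 h, which also makes the contrast negative. Under all 4 treatments, 8 members (of TXNIP, ANKRD10, CLIC5 and TIMP2) were higher at 48 h than at 24 h in set 1 and lower in set 2, and 6 of them are among the 54.

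At 72 h, 5 members lay above vehicle with VEGF and below it with PDGF in both sets (SPAG4, RAB26, CKAP4, SERPINB9 and PIGZ), and 3 lay the other way (an OAS1 probe set, CMTM3 and 11718933_s_at). These are 5.95% and 3.57% of the members, near the shares of 4.38% and 5.13% over all probe sets, so nothing is read from them. The difference between the factors at 72 h was not tested.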

How the results depend on the processing

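The number of members depended on the limits of the rule. It was 30 with a share by 48 h of at most 0.25, 235 with at most 0.45, 6 with a rise of at least 1 on the log2 scale and 127 in the vehicle arrays alone (58 of them shared with the 84). Factor arrays alone gave 110 (59 shared), median centring 78 (68 shared) and the other deposited table again gave 84. Leaving out each array gave 69 to 115 members. Of the 30 members under the stricter share, 13 were called between replicate sets over all times and 21 for the departure at 48 h. Among the 84 members these counts were 37 and 54 with all arrays, and 32 to 39 and 48 to 58 when each array was left out. The 12 treatment comparisons gave 0 members called under every alternative that was run for them, the replicate block included and each array left out included. The replicate sets taken alone gave rises of 0.51 and 1.75 for CLGN and of 1.56 and 0.58 for TXNIP. With 2 arrays a group, effects larger than the intervals given for the treatment comparisons could also be missed after adjustment. A shift common to all probe sets cannot be measured after RMA.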
